A study of Mus musculus with 20 samples.

Results

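The collagen chain genes were taken as every probe whose gene symbol in the array annotation has the form Col, a number, the letter a and a number. The rule found 91 probes of 41 genes, among 45281 probes and 19057 named genes. It does not reach Col6a3, Col12a1, Col20a1 or Col21a1, which were not analysed here. Measured were atrial appendages of CD1 mice aged 12 weeks on 20 Illumina bead arrays, 1 array per sample of total RNA. Left atrial (LA) and right atrial (RA) appendages came from wild-type mice and from heterozygous littermates, with 5 arrays in each of the 4 groups: LA wild type, LA heterozygous, RA wild type and RA heterozygous.

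Collagens are secreted proteins in which chains wind around each other into a stiff helix, and each chain has its own gene. Fibrillar collagens give tissue its tensile strength, type IV collagens form the sheet-like network of basement membranes, and the remaining classes link, space or anchor these structures. In the heart, fibroblasts make most of the fibrillar chains, while endothelial cells, mural cells and cardiomyocytes contribute to basement membranes. These appendages are whole tissue, so fewer cells of a type and less RNA per cell cannot be told apart here.

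A probe was tested when its detection p was under 0.05 on at least 5 arrays, which left 20097 probes. Among them were 43 collagen probes of 29 genes, 15 genes with a single tested probe and 14 with a pair. For a gene with a pair, the probe of higher mean represents the gene in counts and medians. The representative probes of 18 genes were detected on all 20 arrays. Their brightest signals were 3798.6 for Col4a1 and 3710 for Col3a1, on arrays whose highest signal of any probe was 38625.9. The other 11 tested genes were dim, and their brightest signal was 51.4, from Col13a1. The remaining 12 genes were not tested: Col4a3, Col5a3, Col6a4, Col6a5, Col6a6, Col9a2, Col9a3, Col10a1, Col19a1, Col22a1, Col24a1 and Col28a1. None of their 20 probes was detected on more than 3 arrays, and the brightest value among them was 39.9 for Col9a2. A difference between groups in these 12 genes was not detectable with this signal over background.

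Differences are given as log2 differences between group means after background correction, with limma's moderated test and Benjamini-Hochberg adjustment over all 20097 probes. A difference was called at an adjusted p under 0.05. The labels do not say which left and right samples came from the same mouse, so the fit treats all 20 as separate.

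The question for the sides is which collagen chains differ between the appendages. Averaged over genotypes, 5 of the 29 tested genes were higher in the left appendage and none was lower. They were Col8a1, Col15a1, Col6a2, Col4a4 and Col13a1, and their differences ran from 0.52 to 0.96, with Col13a1 near background on the right. Counted by probe, 6 of 43 were called, while 7.35% of all tested probes were called in this comparison and 3.82% were called higher on the left. The median over the 29 genes was 0.11, with 21 of 29 above 0, against a median of 0.00 over all probes, of which 51.4% were above 0.

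**Figure D1:**
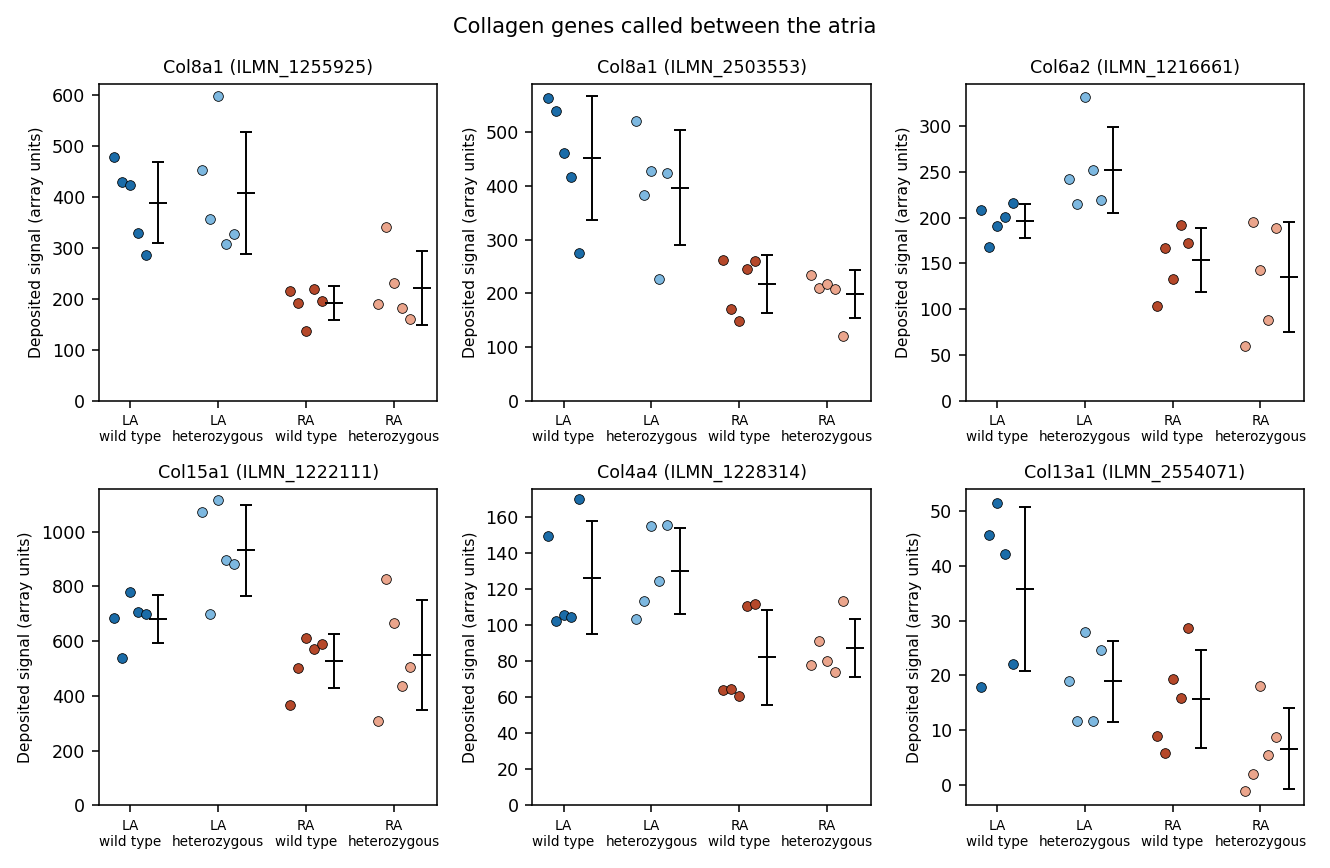
Deposited signal (vertical axis, array units) of each array for the 5 collagen genes called between the sides averaged over genotypes, with both tested probes of Col8a1. Points are arrays in replicate order, and the bar beside each group is the mean with 1 SD (n = 5). Both Col8a1 probes sit higher on the left, where probe ILMN_2503553 runs from 226.8 to 564.4, than on the right, where it runs from 119.7 to 261.2. The left and right points overlap in every panel. For Col8a1 probe ILMN_1255925 the highest RA signal was 342 and the lowest LA signal 286.6.

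Because these genes were higher on the same side, the sequence around their transcription starts is shown for the 3 called within a genotype. RefSeq lists a window of 250 bases before to 50 after the start, on GRCm38.p6, for 33 of the 41 collagen genes and for all 5 called genes. Each sequence runs 5′ to 3′ on the gene's own strand. Capitals mark the letters of a GC box, GGGCGG on either strand. The Col8a1 window is chr16:57754688-57754987 on the minus strand, the first of Col6a2 is chr10:76623355-76623654 on the minus strand, and that of Col15a1 is chr4:47207762-47208061 on the plus strand.
Col8a1: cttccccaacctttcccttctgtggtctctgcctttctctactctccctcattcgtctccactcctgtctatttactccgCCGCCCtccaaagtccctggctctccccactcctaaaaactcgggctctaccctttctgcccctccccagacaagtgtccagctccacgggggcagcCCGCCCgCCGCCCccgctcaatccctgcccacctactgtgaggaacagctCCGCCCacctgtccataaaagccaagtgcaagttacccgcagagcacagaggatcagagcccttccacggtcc
Col6a2: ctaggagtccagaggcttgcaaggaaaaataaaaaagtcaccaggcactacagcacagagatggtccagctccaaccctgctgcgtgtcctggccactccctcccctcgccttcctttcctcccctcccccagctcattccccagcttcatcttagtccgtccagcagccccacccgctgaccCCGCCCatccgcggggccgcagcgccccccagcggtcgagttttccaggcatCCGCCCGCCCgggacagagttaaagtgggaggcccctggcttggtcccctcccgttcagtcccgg
Col15a1: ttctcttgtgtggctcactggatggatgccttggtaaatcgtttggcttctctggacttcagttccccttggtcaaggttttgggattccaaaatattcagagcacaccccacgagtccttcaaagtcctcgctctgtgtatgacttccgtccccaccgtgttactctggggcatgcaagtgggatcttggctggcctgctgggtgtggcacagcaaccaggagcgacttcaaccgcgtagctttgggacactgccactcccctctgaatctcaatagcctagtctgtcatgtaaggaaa
The Col8a1 window holds 4 GC boxes and the Col6a2 window 3, of which the last 2 overlap. Col15a1 has none. A second Col6a2 start has 1, while Col4a4 and Col13a1 have none in their windows. GC boxes stood in 23 of 36 collagen windows, or 63.9%, and in 35.7% of all 32851 windows in the table. TATAAA on either strand, the TATA box, stood in 5 collagen windows (13.9%) and in 13.6% of all. These matches describe letters within the windows only.

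Type VIII collagen is a short-chain collagen that builds open networks beneath endothelium and around vessels, from the chains Col8a1 and Col8a2. Col8a1 had the largest side difference of the tested collagen genes in both genotypes. Probe ILMN_2503553 gave signals of 564.4, 539.6, 460.6, 417.2 and 274.2 on the LA wild-type arrays and 261.2, 170.2, 149.1, 245.4 and 260.3 on the RA wild-type arrays. These groups did not overlap, and every LA array exceeded every RA array. On the heterozygous arrays it gave 521.2, 383.1, 428.4, 226.8 and 423.4 in the LA and 233.6, 209.9, 217.2, 208.7 and 119.7 in the RA. Here 1 LA array, replicate 4, lay below the highest RA array.

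The wild-type difference of Col8a1 was 1.00 (SE 0.23), a fold of 1.99, with a limma adjusted p of 0.015. Its other probe, ILMN_1255925, was 0.96 higher in the LA (SE 0.20, limma adjusted p 0.00718). Without RA wild-type replicate 3 the first probe gave 0.88 with a limma adjusted p of 0.0522. Both probes also separated the wild-type groups completely, as did 2.55% of all probes in this direction. No other collagen gene was called in wild type, where 3.28% of all probes were called and 1.57% were called higher in the LA. In heterozygotes the difference was 0.93 (SE 0.23, limma adjusted p 0.029) and 0.85 with the other probe (SE 0.20, limma adjusted p 0.0241). The heterozygous groups of that other probe overlapped, with RA replicate 2 at 342 and the lowest LA array at 308.7. Col8a1 was the sole collagen gene called higher in the LA in both genotypes, a pattern held by 157 probes, or 0.781%, of all tested. The test of the difference between genotypes gave −0.06 with a 95% interval of −0.73 to 0.61.

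The partner chain Col8a2 had no called difference. Its signals were 75.2, 49.6, 54.8, 20.5 and 32.9 on the LA wild-type arrays and 59.3, 71.2, 45.7, 58.2 and 55.9 on the RA wild-type arrays. In heterozygotes they were 54.4, 55.9, 57.5, 48.6 and 30.1 in the LA and 63.1, 66.7, 54.5, 84.6 and 55.1 in the RA. All groups overlapped with their neighbours. The averaged side difference was −0.31 with a 95% interval of −0.59 to −0.03, and its limma adjusted p was 0.231.

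The side differences of chains that assemble together were then compared in 4 pairs chosen after the values were seen, by an exact two-sided permutation test of side within genotype over 63504 arrangements. The side difference of Col8a1 exceeded that of Col8a2 by 1.27, by 1.30 in wild type and by 1.25 in heterozygotes (exact p 3.15e-05, the smallest the arrangements allow, and 0.000126 adjusted over the 4 pairs). Col8a1 was already known as the largest side difference when the pairs were chosen, so this p is no independent support. The permutation also treats all arrays as separate samples. The Col6a1 difference was smaller than that of Col6a2 by 0.26 on the log2 scale, a difference coded as −0.26 (exact p 0.00869, 0.0174 adjusted over the 4 pairs). That second result did not keep its call without 4 arrays of high Ucp1, with an adjusted exact p of 0.11, or without 4 arrays of high Myl2, with 0.159. It also rests on Col6a2 probe ILMN_1216661. The other Col6a2 probe, ILMN_1258759, was not used. It gave side differences of −0.08 in wild type and 0.27 in heterozygotes, below the 0.27 and 0.48 of Col6a1. For Col1a1 against Col1a2 the value was 0.17, and for Col4a1 against Col4a2 it was −0.11, both with an adjusted exact p of 0.371.

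Type VI collagen forms beaded filaments close to cells, and Col6a1 and Col6a2 each supply a chain of it. Signals of Col6a2 (probe ILMN_1216661) were 241.6, 215.2, 331.8, 251.5 and 219.3 on the LA heterozygous arrays and 60.1, 195.4, 142.6, 88.4 and 189.1 on the RA heterozygous arrays. These groups did not overlap, which in this direction held for 1.92% of all probes. In wild type the LA arrays gave 208.1, 167.7, 190.3, 200.3 and 216.2 and the RA arrays 103.9, 166.4, 133.3, 192.1 and 172. RA replicates 4 and 5 reached into the LA range there.

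Col6a2 was called higher in the LA in heterozygotes, by 0.92 (SE 0.23, limma adjusted p 0.0309), and averaged over genotypes, by 0.63 (SE 0.16, limma adjusted p 0.0161). In wild type its difference was 0.35, with a limma adjusted p of 0.643. The difference between genotypes was 0.57 with a 95% interval of −0.10 to 1.24 (limma adjusted p 0.999), and without the 4 arrays of Myl2 over 5000 it was −0.02. A second Col6a2 probe, ILMN_1258759, gave 0.09 averaged over genotypes, with a limma adjusted p of 0.754, and the probes therefore disagree. Col6a1 gave 0.38 and 0.37 with its probes (limma adjusted p 0.117 and 0.0604), neither of them called. Its probe ILMN_1259388 separated the heterozygous groups, with 1057.9 the lowest LA signal and 1002.3 the highest RA signal, as did 1.92% of all probes in this direction.

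The multiplexins Col15a1 and Col18a1 sit in the zone between basement membranes and matrix, and Col18a1 also gives rise to endostatin. Col15a1 signals in heterozygotes were 1069.8, 699, 1114.8, 895.7 and 880.1 in the LA and 306.8, 826.2, 667, 436.8 and 506.5 in the RA. In wild type they were 683.9, 536.5, 778.4, 705 and 699.7 in the LA and 365.5, 502.6, 611.9, 569.6 and 587.8 in the RA. Within each genotype the LA and RA ranges overlapped, by a single LA array each time.

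Col15a1 was called higher in the LA in heterozygotes by 0.81 (SE 0.21, limma adjusted p 0.0383) and averaged over genotypes by 0.59 (SE 0.15, limma adjusted p 0.0139). The wild-type difference was 0.37, with a limma adjusted p of 0.535. Its interaction was 0.44 with a 95% interval of −0.17 to 1.04. Col18a1 gave 0.16 averaged over genotypes, with an interval of −0.14 to 0.46 and a limma adjusted p of 0.677.

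In heterozygotes 3 of 29 genes were thus called, Col8a1, Col6a2 and Col15a1, on 4 of 43 probes. Over all probes 2.61% were called and 1.24% were called higher in the LA. The median of the 29 genes was 0.21 with 19 above 0, while in wild type it was 0.01 with 17 above 0. Over all probes the corresponding medians were 0.00 and 0.01, with 49.6% and 52.4% above 0. Single arrays decided these heterozygous calls of the representative probes. Col8a1 probe ILMN_2503553 lost its call without LA replicate 1, 2, 3 or 5 or RA replicate 5, at limma adjusted p from 0.0537 to 0.0933. Col6a2 lost it without LA replicate 1, 3 or 4 or RA replicate 1 or 4, at 0.0628 to 0.0928, and Col15a1 without LA replicate 1, 3, 4 or 5 or RA replicate 1, 4 or 5, at 0.067 to 0.107. The differences then still ran from 0.62 to 0.93. Over all collagen probes, the count called was 0 without LA replicate 1 or 3 and 2 without LA replicate 5.

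**Figure D2:**
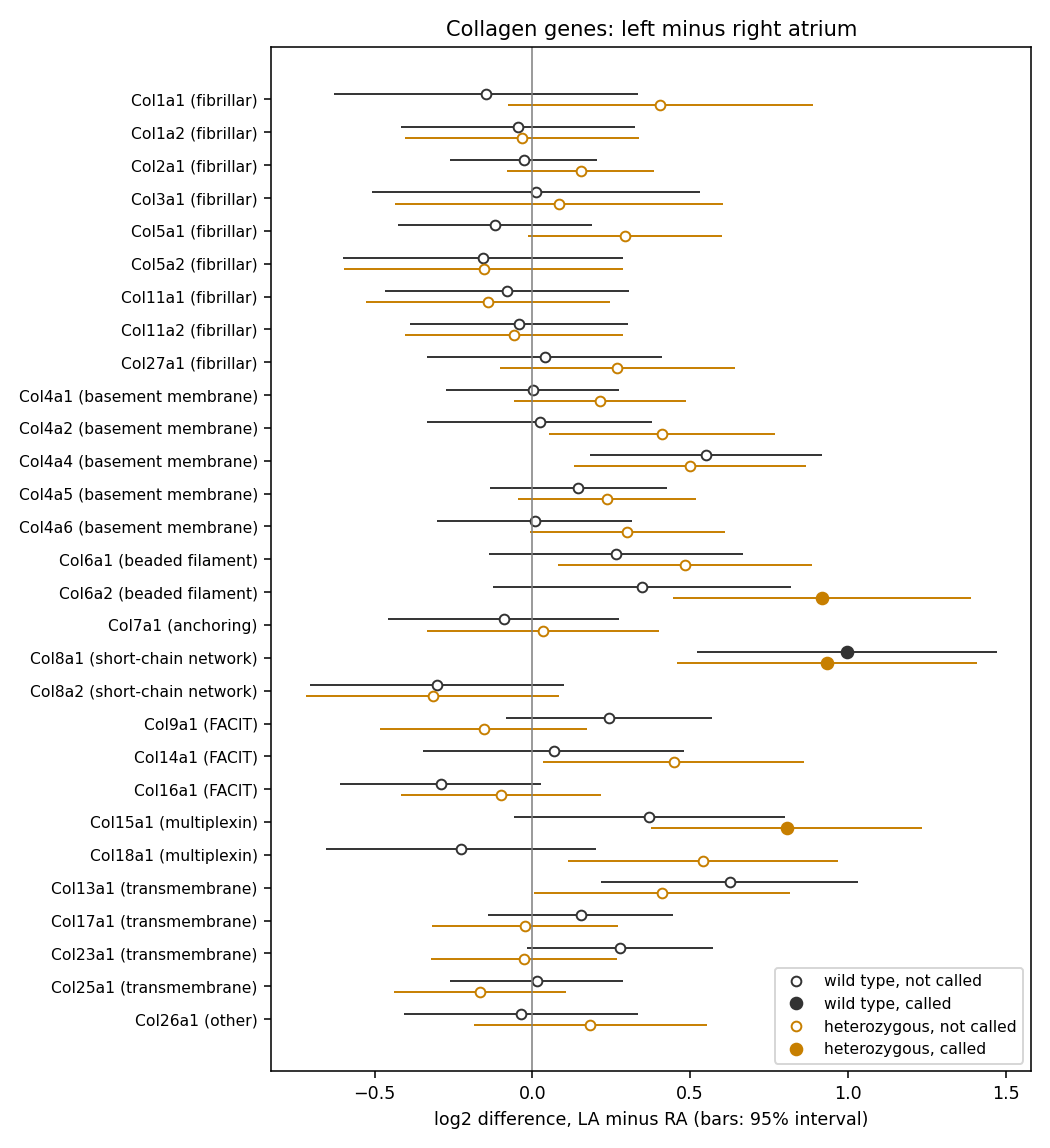
Log2 difference LA minus RA (horizontal axis) of the representative probe of each of the 29 tested collagen genes, grouped by class, in wild type (black) and heterozygotes (orange). Bars are 95% intervals from the limma fit and filled points are called. Col8a1 alone is filled in both genotypes, at 1.00 and 0.93, and Col6a2 and Col15a1 are filled in heterozygotes, at 0.92 and 0.81.

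Basement membrane chains of type IV were all on the positive side of 0 when genotypes were averaged, 5 of 5 tested genes, with a median of 0.19. Col4a4 was the called one. It belongs to the network known best from the kidney filter. Its signals were 149.7, 102.4, 105.7, 104.4 and 170 in the LA wild type and 64.1, 64.6, 60.5, 110.8 and 111.6 in the RA wild type. Heterozygous arrays gave 103.3, 113.7, 155.1, 124.4 and 155.5 in the LA and 77.7, 91.4, 80.4, 74.3 and 113.6 in the RA. In each genotype most RA arrays lay below all LA arrays, and the ranges overlapped.

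Col4a4 was higher in the LA by 0.52 (SE 0.12, limma adjusted p 0.0101), and its other probe gave 0.34 (limma adjusted p 0.0535). The differences within genotypes, 0.55 and 0.50, were not called, with limma adjusted p of 0.114 and 0.178. Col4a3, its partner in the mature network, was not tested, and Col4a5 gave 0.19 (limma adjusted p 0.312). The ubiquitous chains Col4a1 and Col4a2 gave 0.11 and 0.22, with limma adjusted p of 0.647 and 0.393.

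Col4a1 and Col4a2 lie on opposite strands of chromosome 8 with starts 21 bases apart in RefSeq, placed so that their first transcribed bases overlap. The Col4a2 window, chr8:11312555-11312854 on the plus strand of GRCm38.p6, is shown because the pair shares it in part, and capitals mark the 78 bases that also lie in the Col4a1 window.
Col4a2: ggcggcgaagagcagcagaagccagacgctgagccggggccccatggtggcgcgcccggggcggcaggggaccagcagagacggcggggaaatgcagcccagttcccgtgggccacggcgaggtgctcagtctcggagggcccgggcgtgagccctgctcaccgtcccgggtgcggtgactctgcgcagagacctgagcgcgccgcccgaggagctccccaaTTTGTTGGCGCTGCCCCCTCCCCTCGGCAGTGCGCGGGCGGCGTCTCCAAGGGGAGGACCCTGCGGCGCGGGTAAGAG
For heterozygous minus wild type, Col4a1 and Col4a2 gave 0.48 and 0.34 in the LA and 0.27 and −0.04 in the RA, none of them called, and the difference between the genes was not tested there.

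Col13a1, a membrane-spanning collagen of cell adhesion sites and neuromuscular junctions, was dim. It was detected on 5, 3, 3 and 1 arrays of the LA wild type, LA heterozygous, RA wild type and RA heterozygous groups. Its signals were 17.8, 45.6, 51.4, 42.2 and 22 in the LA wild type and 8.9, 5.8, 19.4, 15.8 and 28.6 in the RA wild type. Heterozygous arrays gave 18.9, 11.6, 27.9, 11.6 and 24.6 in the LA and −1.1, 1.9, 18.1, 5.5 and 8.7 in the RA. Averaged over genotypes it was higher in the LA by 0.52 (SE 0.14, limma adjusted p 0.0227), at signals near background on most RA arrays. The call was lost on the deposited values floored at 16 (limma adjusted p 0.0779) and with no filter on dim probes (limma adjusted p 0.0508). Its other probe, ILMN_2774315, was detected on 0 arrays. None of the other transmembrane collagens tested, Col17a1, Col23a1 and Col25a1, was called.

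The fibrillar chains showed no called side difference, 0 of 9 tested genes, with a median of 0.05 averaged over genotypes. With 7.35% of all probes called, a count of 0 among 9 is near the background. Col1a1 and Col1a2, which together make type I collagen, the main fibre of the heart's interstitium, gave 0.13 (95% interval −0.21 to 0.47) and −0.04 (−0.30 to 0.22). Col3a1, the chain of the finer type III fibres, gave 0.05 (−0.32 to 0.41). Col5a1 and Col5a2, whose product sets the diameter of type I fibrils, gave 0.09 (−0.13 to 0.30) and −0.16 (−0.47 to 0.16). The intervals of Col1a1 and Col3a1 leave room for differences of up to 0.47 and 0.41 on the log2 scale.

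Col3a1 signals show how far arrays of a group spread. They were 2048, 1716.4, 1964.5, 1758.7 and 2891.4 in the LA wild type and 1335.4, 1871.8, 1259.1, 2885.8 and 3710 in the RA wild type. In heterozygotes they were 1316.1, 1878, 2155.3, 1912.5 and 2252.8 in the LA and 1950.5, 1799.6, 1423.6, 1492.4 and 2299.1 in the RA. The RA wild-type group alone spanned the range of the other 3 groups. Col1a2 was more even, from 73.5 to 165 over all arrays, and its lowest and highest arrays were also RA wild type.

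Col14a1 and Col16a1 belong to the FACIT collagens, which coat fibrils and have interrupted helices, and Col9a1 is the FACIT of cartilage. None of these 3 tested FACIT genes was called. Col14a1 came close with its probe ILMN_2591027, at 0.33 averaged over genotypes (limma adjusted p 0.0504) and 0.52 in heterozygotes (limma adjusted p 0.0517). In heterozygotes that probe gave 138.6, 118.3, 120.9, 146.4 and 113.3 in the LA and 78.5, 109.3, 74, 55.9 and 111.6 in the RA. These do not overlap, with 113.3 the lowest LA and 111.6 the highest RA signal, as held in this direction for 1.92% of all probes. The brighter Col14a1 probe gave 0.26 averaged over genotypes (limma adjusted p 0.374). Col7a1, the chain of anchoring fibrils, gave −0.03, and Col26a1 gave 0.07.

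The second question is whether collagen transcripts differ between heterozygous and wild-type mice. No collagen probe was called between genotypes in either appendage, and none in the interaction, which asks whether the genotype difference depends on the side. Over all probes 0.00498% were called in the LA, 0.00995% in the RA and 0.00995% in the interaction, each being 1 or 2 probes. At an unadjusted p under 0.05, limma gave 9 of 43 collagen probes in the LA, where 4.66% of all probes reached it. In the RA it gave 2 of 43, against 5.41% of all, and in the interaction 1 of 43, against 2.95%. The smallest adjusted p of a gene's representative probe was 0.959 in the LA, 0.83 in the RA and 0.999 in the interaction.

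In the LA the heterozygous minus wild-type difference was above 0 for 21 of 29 genes, with a median of 0.09, while 48.6% of all probes were above 0 with a median of 0.00. In the same comparison 4 of 4 adipocyte markers (median 1.70) and 3 of 3 smooth muscle markers (median 1.48) were above 0 and 4 of 4 epicardial markers (median −0.53) below 0, none of them called, and their part in the collagen values was not tested. In the RA it was above 0 for 12 of 29 genes, with a median of −0.02, against 49.8% of all probes. The interaction was above 0 for 19 of 29 genes with a median of 0.13, against 49.3% of all probes. The 2 genotype comparisons share no arrays, but the side comparisons above use the same 20 arrays as these.

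**Figure D3:**
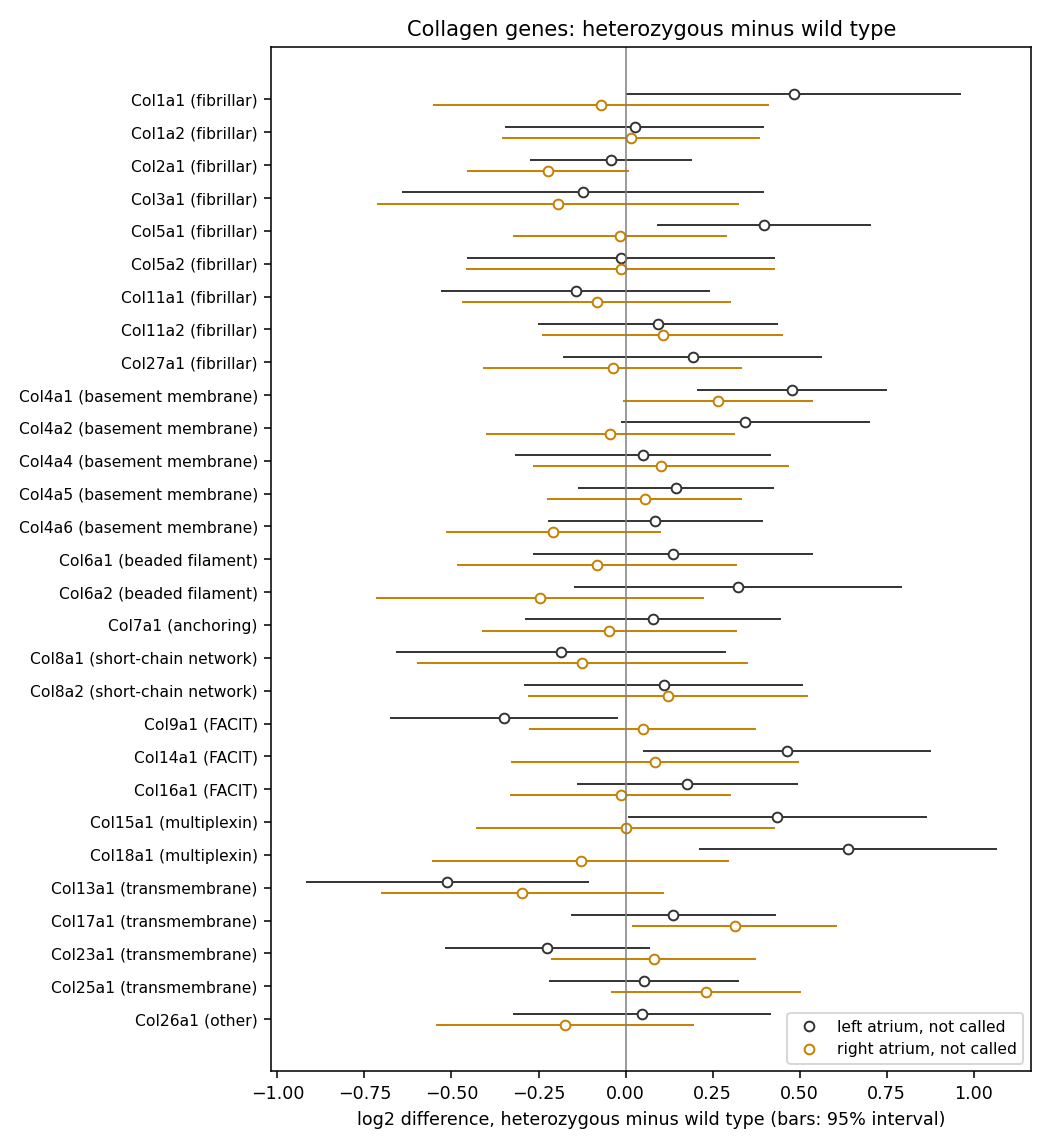
Log2 difference heterozygous minus wild type (horizontal axis) of the representative probe of the 29 tested collagen genes in the LA (black) and RA (orange), with 95% intervals from the limma fit. All points are open, since none was called. Col18a1 at 0.64, Col1a1 at 0.48 and Col4a1 at 0.48 are the highest LA values, and Col13a1 at −0.51 is the lowest.

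Col4a1 had the smallest p of the LA comparison. Its signals were 2669, 2241.6, 2432.6, 2013.9 and 1717.1 in the LA wild type and 3798.6, 2795.5, 3539.1, 2639.8 and 2688.9 in the LA heterozygotes. Those groups overlapped by 1 array on each side. In the RA it gave 2501.7, 2171.6, 2320.3, 1915 and 2081 in wild type and 2195.1, 2930.9, 2769.6, 2757.1 and 2582.1 in heterozygotes. The LA difference was 0.48 with a 95% interval of 0.21 to 0.75 (limma unadjusted p 0.00158, adjusted p 0.959), and the RA difference was 0.27, with an interval of −0.01 to 0.54. Its interaction was 0.21, with an interval of −0.17 to 0.60.

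Col18a1 gave the largest LA difference of the tested genes, 0.64 with a 95% interval of 0.21 to 1.07 (limma unadjusted p 0.00541, adjusted p 1). Its signals were 653.9, 476.4, 656.5, 540.8 and 649 in the LA wild type and 1086.2, 1472.5, 820.8, 799.2 and 654.7 in the LA heterozygotes. The 2 highest LA heterozygous arrays, replicates 1 and 2, are among those that also carry the brown-fat transcript Ucp1, at 323.1 and 165.8. Replicate 4, with Ucp1 at 906.6, gave 799.2, and replicate 3, with Ucp1 at −3, gave 820.8. RA heterozygous replicate 1, with Ucp1 at 446.7, gave 625.7, and RA wild-type replicate 2, with Ucp1 at −6.3, gave 1165.5. Without the 4 arrays of high Ucp1 the difference was 0.30, with replicates 3 and 5 left in the LA heterozygous group. A link of Ucp1 to Col18a1 was not tested. In the RA wild type replicate 2 reached 1165.5 while the other 4 lay between 483.4 and 737.2, and RA heterozygotes lay between 552.2 and 692. The interaction of Col18a1 was 0.77 with a 95% interval of 0.16 to 1.37, and its limma adjusted p was 0.999.

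Among fibrillar chains, Col1a1 gave 0.48 in the LA, with an interval of 0.00 to 0.96, and Col1a2 gave 0.03, with −0.34 to 0.40. The difference between these values was not tested. Col1a1 signals were 145.8, 71.4, 103.4, 82.6 and 85.6 in the LA wild type and 160.9, 158.1, 169.4, 111.9 and 107 in the LA heterozygotes, with overlap at LA wild-type replicate 1. Col3a1 gave −0.12 (−0.64 to 0.40) in the LA and −0.19 (−0.71 to 0.33) in the RA. Col5a1 gave 0.40 in the LA (0.09 to 0.70) and −0.02 in the RA (−0.32 to 0.29).

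Col14a1 probe ILMN_2591027 was the sole collagen probe whose LA genotype groups did not overlap, a separation that 0.478% of all probes showed in this direction. It gave 92.6, 95, 79.5, 86.1 and 107.1 in wild type and 138.6, 118.3, 120.9, 146.4 and 113.3 in heterozygotes, a difference of 0.41 (limma adjusted p 1). The other Col14a1 probe gave 0.46. Col13a1 gave −0.51 in the LA and −0.30 in the RA, with limma adjusted p of 1 and 0.83. For Col8a1 the LA value was −0.19, with an interval of −0.66 to 0.29, and the RA value −0.12, with −0.60 to 0.35.

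Some arrays stood apart in ways that touch these results. Ucp1, the uncoupling protein of brown fat, exceeded 100 on LA heterozygous replicates 1, 2 and 4 and on RA heterozygous replicate 1. Myl2, the ventricular myosin light chain, exceeded 5000 on RA wild-type replicates 2 and 4 and on RA heterozygous replicates 1 and 4. Over the 18 collagen genes detected on all arrays, the median deviation from the 20-array mean was −0.31 and −0.37 on RA heterozygous replicates 1 and 4, and RA heterozygous replicate 1 was the lowest of all arrays in 5 of the 18. RA wild-type replicate 1, with Myl2 at 698.2, was as low at −0.39, while RA wild-type replicates 2 and 4, with high Myl2, were at −0.05 and 0.10. The highest array was LA heterozygous replicate 3 at 0.44, with Ucp1 at −3 and Myl2 at 224.3.

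**Figure D4:**
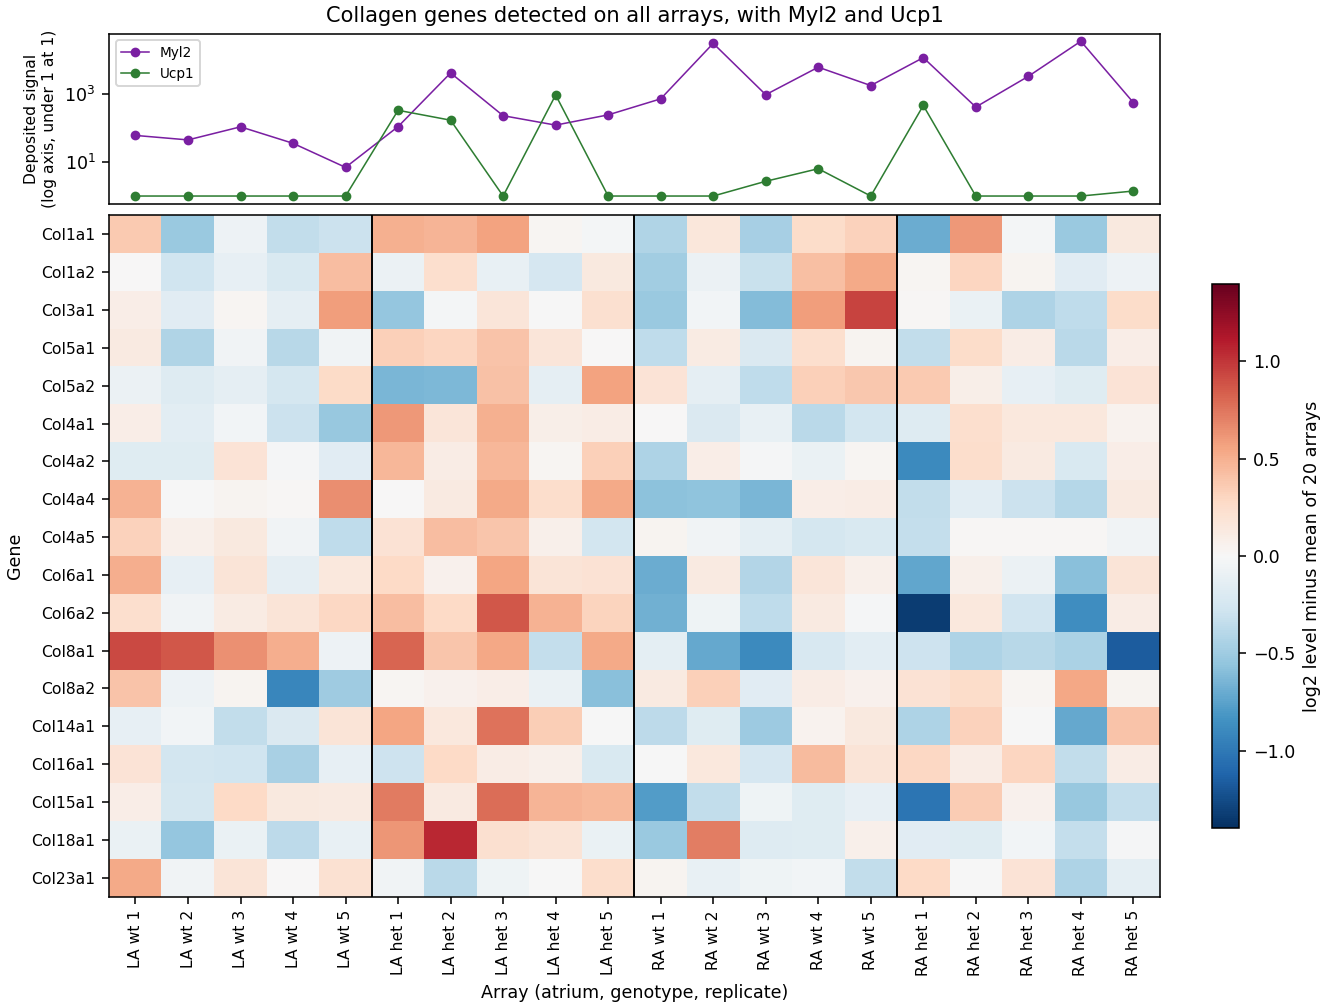
Lower panel: log2 level of 18 collagen genes on each array minus the mean of the 20 arrays (colour), with arrays ordered by group. Upper panel: deposited signals of Myl2 and Ucp1 on the same arrays, log axis. Col8a1 is above its mean on most LA arrays, and RA heterozygous replicates 1 and 4, which have high Myl2, are below the mean in 12 and 15 of the 18 genes. RA wild-type replicates 2 and 4, also high in Myl2, are below it in 11 and 7, and RA wild-type replicate 3 and LA wild-type replicate 2, with Myl2 at 923.7 and 43.9, in 18 and 16.

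Without the 4 arrays of high Myl2, the heterozygous side difference of Col6a2 was 0.48 (limma adjusted p 0.177) and that of Col15a1 0.48 (limma adjusted p 0.319), neither of them called. The averaged difference of Col15a1 was then 0.44 (limma adjusted p 0.0725) and that of Col13a1 0.41 (limma adjusted p 0.172), while Col6a2 at 0.49 (limma adjusted p 0.0134) and Col4a4 at 0.50 (limma adjusted p 0.044) stayed called. Col8a1 averaged over genotypes was 1.01 (limma adjusted p 0.00413). For its probe ILMN_2503553 the differences within genotypes were as large, at 0.96 and 1.05. They were not called with the fewer arrays, at limma adjusted p of 0.0861 and 0.064. In wild type 1 collagen probe was then still called, higher in the LA. Without the 4 arrays of high Ucp1, all 5 averaged differences stayed called. In heterozygotes no collagen probe was called, with 250 of all 20097 probes called. The LA heterozygous group then held only replicates 3 and 5. The heterozygous differences were 1.14 for Col8a1, 0.81 for Col6a2 and 0.73 for Col15a1 (limma adjusted p 0.0745, 0.231 and 0.228). Myl2 varied with side, from 6.9 to 106 in the LA wild type and 698.2 to 29382.7 in the RA wild type, which limits its use as a covariate. With the levels of Adipoq, Myl2 and Upk3b, markers of fat, ventricle and epicardium, as covariates, no collagen probe was called between the sides. Of all 20097 probes, 351 were called in wild type, 207 in heterozygotes and 489 averaged under this setting. Col8a1 averaged over genotypes was then 1.03 (limma adjusted p 0.0614), Col15a1 was 0.15 (limma adjusted p 0.918) and Col6a2 was 0.26 (limma adjusted p 0.856).

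Markers of other cell types were summed as deposited signals per array. The 8 fibroblast markers ranged from 33897.4 to 42093.4 in the LA wild type, 36590.9 to 39385 in the LA heterozygotes, 37114.2 to 41801.1 in the RA wild type and 34091.6 to 41294.1 in the RA heterozygotes. These ranges overlapped, and single fibroblast markers differed both ways: averaged over genotypes, Pi16 and Mfap4 were called higher in the LA, by 1.78 and 1.34, and Tcf21, Dpt and Dpep1 lower, at −0.85, −0.35 and −0.88. The 6 endothelial markers ranged from 5156.6 to 6839.3 in the LA wild type and 8164.5 to 8791.8 in the RA wild type. In heterozygotes they ranged from 5468.9 to 6282.3 in the LA and 6375.7 to 8565.2 in the RA. By gene, Vwf and Eng were called lower in the LA averaged over genotypes, at −0.70 and −0.57, and the other 4 were not called. Of 5 macrophage markers, Csf1r, C1qa, C1qb and Adgre1 were called lower in the LA, at −0.48 to −0.66, and Mrc1 higher, by 0.50. Adipocyte sums of 4 tested markers had medians of 526.2, 3567.4, 1867.2 and 952.6 in the LA wild type, LA heterozygotes, RA wild type and RA heterozygotes, and sums of 4 epicardial markers had medians of 3350.4, 2924.3, 4105.1 and 3854.9. The 3 tested smooth muscle markers ranged from 1611.5 to 4268.2 in the LA wild type, 2485.5 to 26836.3 in the LA heterozygotes, 4895.9 to 21645.5 in the RA wild type and 4109.6 to 9018.8 in the RA heterozygotes. Of the cartilage markers, Acan, Matn1 and Cnmd did not pass the detection filter. Averaged over genotypes, the 2 tested cartilage markers were at −0.51 and −0.29, and 1 was called lower in the LA. The 2 tested ventricular markers were at −4.42 and −0.24, with 1 called lower. Of 4 fast skeletal muscle markers, running from −1.42 to 1.53, 1 was called higher and 2 lower. In this comparison 7.35% of all probes were called. The 4 atrial cardiomyocyte markers, Nppa, Myl7, Myl4 and Sln, summed to between 123959.1 and 140042.1 on every array, and none was called between the sides. The part of these cells in the collagen differences was not tested.

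Genes that make, decorate, bind or cut collagen were read from lists drawn up for this purpose. Of 20 tested genes for synthesis and processing, averaged over genotypes, 3 were higher and 2 lower in the LA, with a median of 0.08, where 7.35% of all probes were called either way and 3.82% higher. Lox, which crosslinks collagen and elastin, was higher by 0.81 (SE 0.17, limma adjusted p 0.00324). Colgalt2, a galactosyltransferase of collagen lysines, was higher by 0.41, with a limma adjusted p of 0.00114. Pcolce2, an enhancer of procollagen C-proteinase, was lower in the LA at −0.98 (SE 0.10, limma adjusted p 1.71e-06). P3h2, a prolyl 3-hydroxylase with type IV collagen among its substrates, was lower in the LA at −0.62 (limma adjusted p 5.27e-05).

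The same 7.35% is the background for the lists that follow. Among 10 basement membrane partners Nid1, the nidogen that bridges laminin and type IV collagen, was the called gene, higher in the LA by 0.55 (limma adjusted p 0.000237), and the list's median was 0.17. In the fibril-associated matrix, with 9 genes tested and a median of −0.12, elastin (Eln) was higher by 0.45 (limma adjusted p 0.0389) and Tnxb, tenascin X, lower at −0.35 (limma adjusted p 0.0499). Of 11 tested degradation genes 2 were higher, 2 were lower, and the median was −0.16. Timp4, an inhibitor of matrix metalloproteinases, was higher by 2.10 (SE 0.23, limma adjusted p 3.6e-06) and Mmp2, a gelatinase, by 0.58 (limma adjusted p 0.00184). The proteases Mmp3 and Mmp13, the latter a collagenase, were lower at −1.06 and −0.95, with limma adjusted p of 0.0192 and 0.00543.

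Collagen receptors were split. Itga11, the integrin chain that binds fibrillar collagen on fibroblasts, was higher in the LA in both genotypes, by 0.72 and 0.70, and by 0.71 on average (limma adjusted p 0.000299). Ddr1, a receptor kinase that collagen activates, was lower at −0.39 (limma adjusted p 0.00166). The list's median over 6 tested genes was −0.02. Between genotypes none of the genes on these 5 lists was called in either appendage.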

How the data were processed

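Total RNA was labelled with biotin and hybridised to Illumina bead arrays, per the labels. The deposited table holds intensity values per probe and, beside them, detection p-values, per the file headers. The deposited detection p-values had been written as 1 minus p, which was inferred here and is not stated in the file headers. Which software read and normalized the intensities and computed the detection p-values is not given in the sources used here. From 33.7% to 33.9% of the intensities deposited by the authors are below 0 and the sorted values of all arrays lie within 1.8 units, so the deposited intensities had been background-subtracted and quantile-normalized. The main settings had assumed uncorrected values and were kept: normexp correction with an offset of 16, its background taken through the detection p-values, quantile normalization and log2. Group means were fitted over all 4 groups with limma 3.58.1 in R 4.3.3. Between 17316 and 19422 probes were detected per array, and 5 arrays a group limit the precision. Nothing in the labels says whether same-numbered samples share a mouse. The deviations of same-numbered LA and RA arrays from their group means correlated from −0.42 to 0.349, so the numbers were not taken as pairs. The levels themselves correlated from 0.974 to 0.994 between any 2 arrays. The limma p-values set a difference against the spread of arrays within the groups. Since samples may share a mouse, that spread cannot be taken as spread between mice.

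Genes were named by 1 rule: those called, filled to 5 a comparison by smallest p, with Col1a1, Col1a2 and Col3a1 always included. Other members are described by class. Values of some named genes that were not called were left out above. Among them is Col17a1, which had the smallest p of the representative probes between genotypes in the RA. It was 0.31 higher in heterozygotes (limma unadjusted p 0.038, adjusted p 0.83), on a probe detected on 5 arrays. The members, classes and lists were chosen with earlier results of these data known. Alternatives covered background correction, normalization, dim probes, variance model, array weights, arrays fitted, covariates, the replicate block and each array left out. Probes were named from the platform annotation. The gene that is heterozygous is not reported here.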

Additional observations from a re-analysis of the deposited data

Results flagged for a closer look

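Within each group of 5 arrays, the gap of the lowest or highest array to its neighbour was compared with the group's range, for the representative probes of the 18 collagen genes named by the rule. Of 72 groups 2 exceeded the critical share of 0.71, where chance flags about 1 group in 20. Col8a1 in RA heterozygous replicate 5 was lowest at 119.7, with the next array at 208.7, a gap of 0.828 of the range. Without that array the heterozygous Col8a1 difference was 0.78, with a limma adjusted p of 0.0778. Col17a1 in LA heterozygous replicate 3 was highest at 25.5, with the next at 16.2, a gap of 0.73 of the range. That probe was detected on 5 of the 20 arrays.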

How the results depend on the processing

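No collagen probe was called between genotypes or in the interaction under any alternative run. The value tables of the series were identical, so that alternative gave nothing to compare. In heterozygotes the count of collagen probes called between the sides, 4 in the main setting, was 0 with no filter on dim probes, 0 when only the arrays of the groups compared were fitted, 0 without the arrays of high Ucp1, 0 without those of high Myl2, and 0 with Adipoq, Myl2 and Upk3b as covariates. With the replicate block it was 1. The count ranged from 0 to 5 when single arrays were left out. In wild type the count of 2 became 1 without the arrays of high Myl2, 1 with one probe per gene and 0 with the covariates, and ranged from 1 to 3 over single arrays left out. Averaged over genotypes it became 0 with the covariates, with Col8a1 at 1.03 and a limma adjusted p of 0.0614, and was 6 to 8 with single arrays left out. Averaged Col13a1 lost its call on the deposited values floored at 16, at 0.56 with a limma adjusted p of 0.0779, and with no filter on dim probes, at 0.0508. The replicate numbers share no more than a number as far as the labels say, and with the block all 5 averaged differences stayed called. In wild type, Col8a1 probe ILMN_2503553 lost its call without RA wild-type replicate 3, at 0.88 with a limma adjusted p of 0.0522. There 1 collagen probe was still called higher in the LA. Over all probes the calls ranged from 351 to 1001 in wild type, 207 to 777 in heterozygotes and 489 to 1981 averaged, against 660, 524 and 1478. The lowest of each came with the covariates.

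Signs turned for values that were not called, all within 0.2 of 0 in the main setting except the Col6a2 interaction at 0.57, and the cause was not tested. With array weights Col3a1 gave −0.185 for the wild-type side and −0.0214 averaged, and for the RA genotype Col1a1 gave 0.0182 and Col1a2 −0.0814. Without the arrays of high Ucp1, Col3a1 gave 0.112 for the LA genotype and Col1a1 0.0764 for the RA genotype. Without those of high Myl2, Col1a1 and Col1a2 gave 0.0102 and 0.0595 for the wild-type side, Col1a1 gave 0.424 for the RA genotype, and the interaction was −0.157 for Col1a2, −0.0932 for Col3a1 and −0.0215 for Col6a2. With the covariates, Col1a2 gave 0.0181 for the wild-type side, 0.00899 averaged, −0.000957 for the LA genotype and −0.0182 for the interaction, while Col1a1 gave −0.0768 averaged and Col3a1 0.0569 for the LA genotype. With single arrays left out, Col1a2 ran from −0.169 to 0.085 for the wild-type side, −0.0946 to 0.0346 for the heterozygous side, −0.102 to 0.0256 averaged, −0.035 to 0.142 for the LA genotype, −0.11 to 0.145 for the RA genotype and −0.119 to 0.136 for the interaction. Col3a1 ran from −0.158 to 0.229 for the wild-type side, −0.0374 to 0.156 averaged, −0.188 to 0.00408 for the LA genotype, −0.363 to 0.0235 for the RA genotype and −0.145 to 0.242 for the interaction. Col1a1 ran from −0.247 to 0.0764 for the RA genotype.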
